A study of Mus musculus with 35 samples.

Results

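A set of 10 genes of cell adhesion and of the epithelial to mesenchymal transition (EMT) were followed while ES cells were driven towards primitive endoderm (PrE). They were Cdh1, Cdh2, Cdh3, Epcam, Vim, Snai1, Snai2, Zeb1, Zeb2 and Twist1, chosen by name, and they are 10 of the 44853 genes in the table of the induction series. All 10 were tested, since each averaged 1 TPM or more in some group, where TPM is a gene's length-corrected share of the transcripts of its library. Of these genes, 9 are also among the 6275 of the siRNA table, which does not list Snai2.

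The induction series held mouse ES cells of the KH2 line with a GATA6 transgene that is switched on by doxycycline (Dox), sampled untreated (0 h) and with 1 µg/mL Dox for 16, 24, 48, 72, 96 or 168 h, 3 libraries each. It also held 2 libraries of XEN cells, a wild-type extra-embryonic endoderm line of another mouse strain that was grown on feeders without LIF, so that strain, medium and cell state cannot be told apart in comparisons with it. In the siRNA series the same inducible ES cells were given a control siRNA (siCTL, 6 libraries) or siRNA against Oct4 (siOct4, 6 libraries) and collected after 48 h of Dox. All ES cells, the 0 h controls included, carried the transgene, came from selected clones and were grown on mouse embryonic fibroblast feeders with serum and LIF. The feeders of ES and XEN cells were depleted by adsorption before lysis.

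Cadherins are calcium-dependent adhesion molecules that join neighbouring cells, with catenins linking them to actin. In EMT, an epithelial cell loses E-cadherin (Cdh1) and adhesion proteins such as Epcam and often gains N-cadherin (Cdh2) and the intermediate filament vimentin (Vim). The exchange of E-cadherin for N-cadherin is called the cadherin switch. The zinc finger factors of the Snai and Zeb families and the basic helix-loop-helix factor Twist1 are the best known regulators of EMT. Snai and Zeb proteins bind E-box sequences in the Cdh1 promoter. PrE gives rise to parietal endoderm, whose migratory cells leave the epithelium in a classic embryonic EMT, and to visceral endoderm, which stays epithelial.

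The promoters of 5 of the 10 genes, those of Epcam, Vim, Snai1, Zeb2 and Twist1, were found in the RefSeq promoter table (GRCm38.p6). Shown here are those of the factors with the clearest rises over Dox, Snai1 and Twist1, and that of Epcam, which fell, each from 250 bases before to 50 bases after the start of the gene, 5′ to 3′. Capitals mark CAGGTG on either strand (CACCTG on the other), the E-box that Snai and Zeb factors bind.
Snai1 (chr2:167537945-167538244, plus strand): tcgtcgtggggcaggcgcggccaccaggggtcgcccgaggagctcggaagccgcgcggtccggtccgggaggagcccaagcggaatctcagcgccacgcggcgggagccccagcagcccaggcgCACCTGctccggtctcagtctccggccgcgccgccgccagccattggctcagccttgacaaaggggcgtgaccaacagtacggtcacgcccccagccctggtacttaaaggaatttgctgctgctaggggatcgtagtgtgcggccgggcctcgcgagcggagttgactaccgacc
Epcam (chr17:87635729-87636028, plus strand): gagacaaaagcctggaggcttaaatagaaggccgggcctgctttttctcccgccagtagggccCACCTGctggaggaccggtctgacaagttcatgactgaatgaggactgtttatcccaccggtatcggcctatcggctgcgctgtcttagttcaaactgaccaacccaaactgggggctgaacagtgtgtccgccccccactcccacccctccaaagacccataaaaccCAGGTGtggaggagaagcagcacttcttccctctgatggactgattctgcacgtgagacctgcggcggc
Twist1 (chr12:33957421-33957720, plus strand): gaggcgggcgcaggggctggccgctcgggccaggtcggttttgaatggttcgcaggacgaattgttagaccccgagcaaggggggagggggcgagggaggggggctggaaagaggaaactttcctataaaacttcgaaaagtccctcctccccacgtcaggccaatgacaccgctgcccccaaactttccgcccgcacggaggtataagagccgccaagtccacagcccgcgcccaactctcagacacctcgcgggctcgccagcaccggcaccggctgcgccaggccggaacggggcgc
The Epcam window held 2 matches to CAGGTG and the Snai1 window 1, while the windows of Vim, Twist1 and Zeb2 (4 starts) held 0. CAGGTG was found in 20.2% of the 32817 promoters of this length. The GATA motif (AGATAA on either strand, or its variants TGATAA and AGATAG and TGATAG) was found in none of the windows of these 5 genes and in 29.8% of all promoters.

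In the induction series 12034 to 13109 genes a library were at 1 TPM or more, and since TPM keep no read number the depth is unknown. Gata6 was at 0.193 to 0.375 TPM at 0 h and at 129.3 to 138.5 TPM at 16 h. Pou5f1, which encodes Oct4, was at 781.8 to 1194 TPM in siCTL and at 281.6 to 386.6 TPM in siOct4. Thy1, a fibroblast surface marker, was at 13.4 to 34.9 TPM in replicate 3 of the ES-derived groups and at 1.2 to 4.75 TPM in replicates 1 and 2. The 12 fibroblast markers summed to 42.3 to 142.9 TPM in replicates 1 and 2 and to 90.9 to 307.8 TPM in replicate 3, which had the highest sum in 6 of 7 groups. At 96 h it had the lowest, 90.9 TPM against 131.6 and 124.1 TPM. In these bulk samples, fewer cells of a type and less RNA per cell cannot be told apart. The 6 PrE markers (Gata4, Sox17, Sox7, Pdgfra, Dab2 and Foxa2) rose from summed levels of 2.9 to 4.07 TPM at 0 h to 1683 to 1851 TPM at 168 h and were at 1247 to 1251 TPM in XEN cells. The 6 ES cell markers fell from 2778 to 3047 TPM to 77.3 to 155.9 TPM at 168 h and 8.79 to 8.87 TPM in XEN cells.

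Changes are differences of mean log2(TPM + 1) with their standard errors (SE) from limma, with p-values adjusted by Benjamini-Hochberg over the 15057 genes tested. A gene was called at an adjusted p under 0.05 and an absolute log2 change over 1. Changes of weakly expressed genes come out too small on this scale. The study describes the replicates of the induction series as independent, and the labels do not say which culture each came from. Across all genes, replicates 1 and 2 of the ES-derived groups were closest, at root mean square differences in log2(TPM + 1) of 0.289 to 0.352. Pairs with replicate 3 were at 0.354 to 0.590. The tests take all 3 as independent, and p-values are too small if replicates 1 and 2 share a culture.

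The first comparison asked how the 10 genes differed from untreated ES cells over the course of Dox. At 16 h, 2 of the 10 were called, both higher, where 2.77% of all genes tested were called. At 24 h 4 were called, all higher (5.68% of all genes). At 48 h there were 2 higher and 1 lower (16.4%), at 72 h 2 higher and 1 lower (26.2%), and at 96 h 2 higher and 3 lower (29.5%). At 168 h, 39.1% of all genes were called. Snai1 and Twist1 were higher, 2 of 10 genes against 22.6% of all genes called higher, and Cdh1, Cdh3 and Epcam were lower, 3 of 10 against 16.5% called lower. Set against these shares, 5 of 10 is not a result about the group, and each gene is described on its own.

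**Figure D1:**
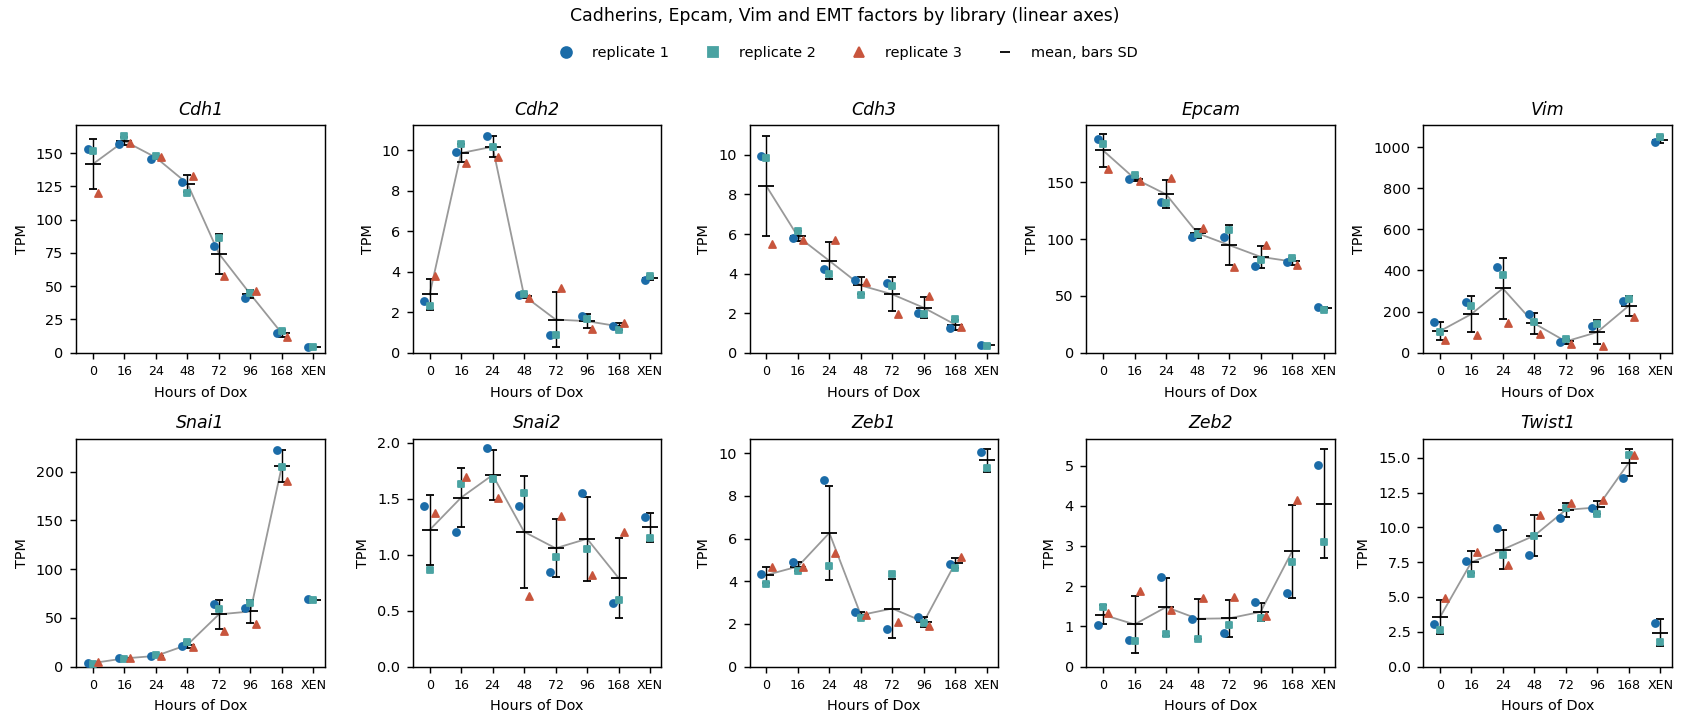
TPM of each of the 10 genes (vertical axes, linear, from 0) by hours of Dox and in XEN cells (horizontal axes), with points for libraries, marked by replicate, and dashes with bars for the mean and SD of each group. Cdh1 fell to 11.9 to 16.5 TPM at 168 h and Snai1 rose to 190.2 to 222.3 TPM, while Cdh2 was high at 16 and 24 h only.

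Cdh1, E-cadherin (mm10, chromosome 8, 106603351 to 106670246, plus strand, protein-coding with 16 exons), fell late and far. In replicates 1, 2 and 3 it stood at 153.4, 151.6 and 120.3 TPM at 0 h, 156.9, 162.9 and 157.6 TPM at 16 h, 145.5, 147.8 and 146.9 TPM at 24 h and 128.0, 120.2 and 133.1 TPM at 48 h. It then stood at 80.1, 86.0 and 57.5 TPM at 72 h, 40.8, 45.1 and 46.1 TPM at 96 h and 15.2, 16.5 and 11.9 TPM at 168 h, and at 4.46 and 4.53 TPM in XEN cells. From 72 h on, all libraries of each group lay below all libraries of the group before it, and XEN cells lay lowest. The mean at 168 h, 14.5 ± 2.4 TPM (SD, n = 3), was 10.2% of that at 0 h, 141.8 ± 18.6 TPM (SD, n = 3), a log2 change of -3.21 (limma adjusted p = 3.13e-14, SE 0.127).

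Up to 48 h of Dox, Cdh1 stayed within a narrow range, with log2 changes from 0 h of 0.17 at 16 h (limma adjusted p = 0.462) and -0.15 at 48 h (limma adjusted p = 0.343). At 72 h the log2 change was -0.93 (limma adjusted p = 2.72e-06, SE 0.127), just short of the fold minimum, and it was -1.04 without replicate 3 of 0 h, -1.04 without replicate 2 of 72 h and -1.01 after rescaling of the libraries. At 96 h it was called, at -1.66 (limma adjusted p = 7.92e-10, SE 0.127).

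Cdh3, P-cadherin (mm10, chromosome 8, 106510891 to 106557297, plus strand), is the neighbour of Cdh1 on the chromosome and fell earlier. It was at 9.93, 9.84 and 5.50 TPM at 0 h, 3.69, 2.92 and 3.60 TPM at 48 h, 1.24, 1.71 and 1.31 TPM at 168 h, and 0.415 and 0.364 TPM in XEN cells. At 16 h it was 5.80, 6.16 and 5.67 TPM and at 24 h 4.26, 3.96 and 5.72 TPM, both overlapping with the low replicate 3 of 0 h. Its log2 change passed the call at 48 h, at -1.06 (limma adjusted p = 0.000126, SE 0.194), but was between -0.94 and -0.98 when replicate 1 or 2 of 0 h or replicate 2 of 48 h was left out. By 168 h it reached -1.93 (limma adjusted p = 2.97e-08, SE 0.194).

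Epcam (mm10, chromosome 17, 87635979 to 87651129, plus strand), an epithelial adhesion molecule that is not a cadherin, fell in small steps and stayed at a considerable level. Its libraries held 188.3, 183.8 and 161.8 TPM at 0 h, 153.0, 155.9 and 150.8 TPM at 16 h, 101.4, 104.4 and 109.5 TPM at 48 h, 80.02, 83.4 and 77.4 TPM at 168 h, and 39.9 and 37.9 TPM in XEN cells. The groups at 72 h (75.0 to 107.5 TPM) and 96 h (76.7 to 95.1 TPM) overlapped with each other. It was called from 96 h, with a log2 change of -1.07 (adjusted p = 3.74e-08 in limma, SE 0.107), and had reached -1.14 by 168 h (adjusted p = 1.11e-08, SE 0.107), where 45.1% of the 0 h mean remained against 10.2% for Cdh1.

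Cdh2, N-cadherin (mm10, chromosome 18, 16588877 to 16809246, minus strand), the cadherin gained in the classic switch, rose early and did not stay up. It was at 2.55, 2.31 and 3.77 TPM at 0 h, 9.92, 10.3 and 9.38 TPM at 16 h, 10.7, 10.2 and 9.66 TPM at 24 h and 2.83, 2.89 and 2.70 TPM at 48 h. Later it was at 0.862, 0.851 and 3.204 TPM at 72 h, 1.84, 1.68 and 1.16 TPM at 96 h and 1.32, 1.13 and 1.46 TPM at 168 h. All libraries at 16 and 24 h lay above all others in the series. On the log2 scale Cdh2 had risen by 1.503 after 16 h (SE 0.222, adjusted p = 8.58e-05 in limma) and by 1.54 after 24 h (SE 0.222, adjusted p = 2.9e-05).

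Between 24 and 48 h Cdh2 fell again by 1.55 on the log2 scale (limma adjusted p = 2.45e-05, SE 0.222). At 168 h it was 0.74 lower than at 0 h on that scale, a log2 change of -0.74 (limma adjusted p = 0.0057) that did not reach the fold minimum, and it did so with a pseudocount of 0.1, at -1.06, or with the fibroblast score as a covariate, at -1.07. Replicate 3 of 72 h, at 3.204 TPM, stood away from the other libraries of that time. Without it the log2 change from 0 h to 72 h was -1.04 in place of -0.65. This library was off across all genes, with the largest root mean square log2 differences within a group of the series, 0.590 and 0.572. Its fibroblast sum was 171.3 TPM, against 59.6 and 70.2 TPM. It was also the lowest at 72 h for Cdh1, Cdh3, Epcam, Snai1 and Vim, so its deviation is not particular to Cdh2. Cdh1 thus exceeded Cdh2 in every library, by 31.9 to 65.5 times at 0 h, 13.6 to 15.2 times at 24 h, 8.13 to 14.7 times at 168 h and 1.2 to 1.23 times in XEN cells, as ratios of TPM.

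Snai1 (mm10, chromosome 2, 167538195 to 167542814, plus strand, protein-coding with 3 exons), the repressor of Cdh1, rose at the first time measured and kept rising. It was at 3.60, 2.88 and 4.27 TPM at 0 h, 8.36, 7.75 and 8.99 TPM at 16 h, 10.7, 11.7 and 10.4 TPM at 24 h and 21.5, 25.6 and 19.9 TPM at 48 h. It reached 64.6, 59.5 and 36.6 TPM at 72 h, 60.3, 65.7 and 43.7 TPM at 96 h and 222.3, 205.0 and 190.2 TPM at 168 h. Each group lay wholly above the one before it except 96 h, which overlapped with 72 h. The 168 h mean was 57.4 times that of 0 h, a log2 change of 5.50 (limma adjusted p = 1.34e-15, SE 0.174).

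At 16 h Snai1 was called at a log2 change of 1.04 (limma adjusted p = 0.000332, SE 0.174), which was 0.93 without replicate 2 of 0 h and 0.99 without replicate 3 of 16 h. The calls of Snai1 at 24, 48, 72, 96 and 168 h, with log2 changes of 1.39, 2.35, 3.54, 3.64 and 5.50, held under every alternative that was run.

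**Figure D2:**
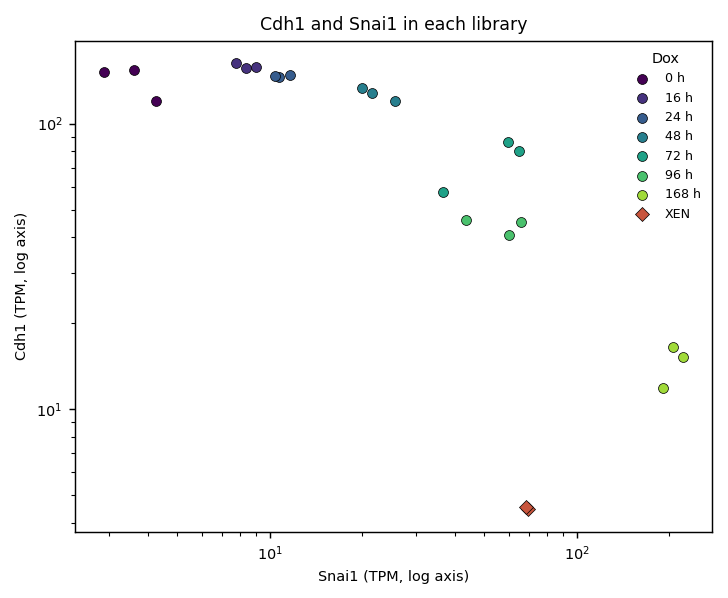
Cdh1 (vertical) against Snai1 (horizontal) in TPM on log axes, 1 point a library, coloured by hours of Dox with XEN cells as diamonds. Through 48 h Snai1 rose from 2.88 to 25.6 TPM while Cdh1 stayed between 120.2 and 162.9 TPM, and the XEN libraries lay off the path of the time course.

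Snai1 rose before Cdh1 fell, and both moved from 96 to 168 h. At 48 h Snai1 was at 19.9 to 25.6 TPM, above all 0 h libraries, and Cdh1 at 120.2 to 133.1 TPM overlapped with its 0 h libraries. XEN cells had less Cdh1 than the 168 h libraries and also less Snai1, at 69.4 and 68.2 TPM.

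Twist1 (mm10, chromosome 12, 33957671 to 33959829, plus strand), a mesodermal and neural crest factor, rose more modestly. It was at 3.09, 2.60 and 4.91 TPM at 0 h, 7.59, 6.65 and 8.24 TPM at 16 h, 9.95, 8.01 and 7.28 TPM at 24 h and 13.5, 15.2 and 15.2 TPM at 168 h. Between these times it was at 7.98 to 10.9 TPM at 48 h, 10.7 to 11.7 TPM at 72 h and 10.98 to 11.96 TPM at 96 h, and neighbouring times overlapped from 16 to 96 h. The log2 change was 0.93 at 16 h (limma adjusted p = 0.000694), 1.08 at 24 h (limma adjusted p = 7.55e-05) and 1.82 at 168 h (limma adjusted p = 9.07e-09, SE 0.169). At 16 h it was called without replicate 3 of 0 h, at 1.14, and without replicate 2 of 16 h, at 1.01. The call at 24 h was lost without replicate 2 of 0 h, at 0.93, without replicate 1 of 24 h, at 0.96, with the fibroblast score as a covariate, at 0.99, and with neighbouring libraries averaged, at 0.93.

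The other EMT factors were low and were not called at any time of Dox against 0 h in the main fit. With a pseudocount of 0.1, Zeb1 at 96 h and Zeb2 at 168 h were called. Zeb1 at 96 h, 2.33, 2.06 and 1.89 TPM, lay below all 0 h libraries. Its log2 change of -0.77 (limma adjusted p = 0.00172) was below the fold minimum. Snai2 (mm10, chromosome 16, 14705852 to 14709385), the close relative of Snai1, stayed between 0.57 and 1.96 TPM in all 23 libraries, with group means from 0.792 TPM at 168 h to 1.71 TPM at 24 h. Zeb1 (mm10, chromosome 18, 5591860 to 5775467) was at 4.36, 3.87 and 4.65 TPM at 0 h, 2.55, 2.26 and 2.43 TPM at 48 h and 4.81, 4.63 and 5.12 TPM at 168 h. Its 24 h libraries, 8.77, 4.72 and 5.30 TPM, were uneven, and the step from 24 to 48 h, a log2 change of -1.05 (limma adjusted p = 0.000358, SE 0.196), was -0.82 without replicate 1 of 24 h. Zeb2 (mm10, chromosome 2, 44983632 to 45117395) was at 1.04, 1.49 and 1.34 TPM at 0 h and at 1.84, 2.61 and 4.14 TPM at 168 h, which did not overlap, with a log2 change of 0.72 (limma adjusted p = 0.0206) below the fold minimum.

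Vim (mm10, chromosome 2, 13573927 to 13582826), the filament of mesenchymal cells and of fibroblasts, went up, down and up again. It was at 149.5, 102.2 and 62.5 TPM at 0 h, 248.9, 228.2 and 86.2 TPM at 16 h, 416.0, 378.0 and 143.7 TPM at 24 h and 187.1, 149.6 and 89.9 TPM at 48 h. It was at 52.4, 67.5 and 44.8 TPM at 72 h, 131.4, 137.3 and 31.6 TPM at 96 h and 252.6, 261.3 and 171.6 TPM at 168 h. Replicate 3 was the lowest library in 7 of 7 ES-derived groups, the replicate in which Thy1 was highest in 7 of 7. With the fibroblast score as a covariate the log2 change of Vim was 2.04 at 168 h (limma adjusted p = 0.002), against 1.18 without it. The score, the mean log2(TPM + 1) of the fibroblast markers, was 2.82 in replicate 3 against 1.82 and 1.65 at 0 h. At 168 h it was 3.90 against 2.72 and 2.68. Feeder content and replicate 3 thus cannot be told apart here, and 2.04 is not a change freed of feeder RNA.

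With this spread, Vim was called at 24 h at a log2 change of 1.51 (limma adjusted p = 0.0435, SE 0.537) although its 24 h and 0 h libraries overlapped. The call was lost without replicate 2 or 3 of 0 h or replicate 1 or 2 of 24 h, with adjusted p from 0.0887 to 0.165 in limma. It was also lost with no filter on low values, with only the groups compared and with neighbouring libraries averaged. At 168 h the libraries did not overlap with 0 h and the log2 change was 1.18 (limma adjusted p = 0.0556, SE 0.537), and it was called without replicate 1 of 0 h, at 1.48 (limma adjusted p = 0.0341). With replicates 1 and 2 alone the 168 h change was 1.05 (limma adjusted p = 0.000116), that at 72 h was -1.04 (limma adjusted p = 0.000146), and the steps from 24 to 48 h and from 48 to 72 h were -1.24 and -1.48.

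**Figure D3:**
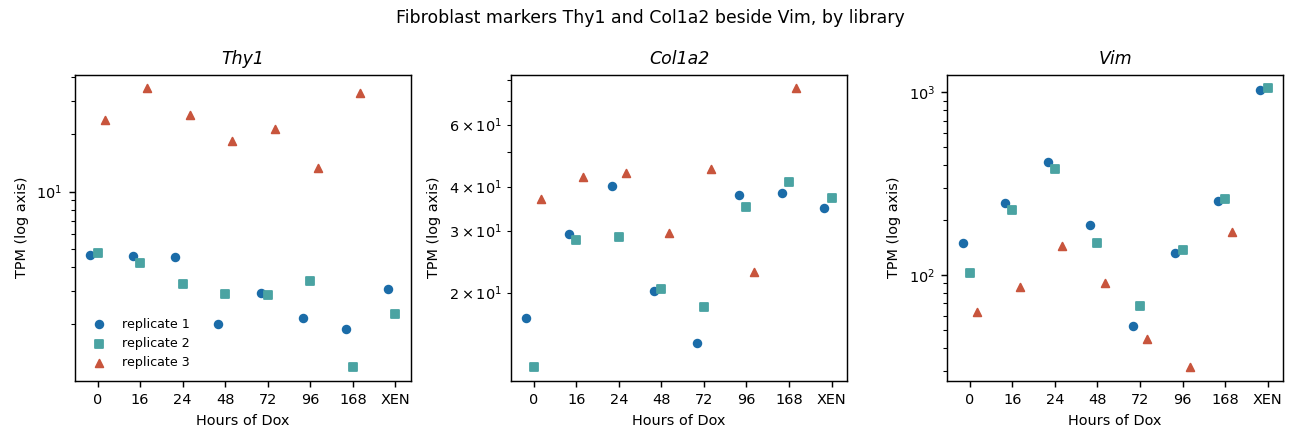
TPM of the fibroblast markers Thy1 and Col1a2 and of Vim (vertical log axes) by hours of Dox and in XEN cells, 1 point a library, marked by replicate. In each ES-derived group replicate 3 had the highest Thy1, 13.4 to 34.9 TPM, and the lowest Vim.

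The steps between neighbouring times showed where the genes moved. From 16 to 24 h, 0.352% of all genes and 0 of these 10 were called by limma, and 0 of the 10 had an unadjusted p under 0.05. From 24 to 48 h, 5.56% of all genes and 2 of the 10 were called, the falls of Cdh2 and Zeb1. From 48 to 72 h, 3.33% and 1 of the 10 were called, a rise of Snai1 of 1.19 (limma adjusted p = 6.78e-05, SE 0.174). From 72 to 96 h, 1.71% and 0 of the 10 were called by limma, with 1 of the 10 at an unadjusted p under 0.05, Cdh1. Its fall of -0.73 (limma adjusted p = 0.00145) missed only the fold minimum. The same held from 24 to 48 h for Snai1, at 0.965 (limma adjusted p = 0.000266), and Epcam, at -0.40 (limma adjusted p = 0.00632). From 48 to 72 h it held for Cdh1, at -0.78 (limma adjusted p = 0.000184), and Cdh2, at -0.64 (limma adjusted p = 0.0356).

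From 96 to 168 h, 7.67% of all genes and 3 of the 10 were called. Snai1 rose by 1.86 (limma adjusted p = 1.26e-07, SE 0.174) and Cdh1 fell by 1.55 (limma adjusted p = 2.69e-08, SE 0.127). Rises of Zeb1, at 0.92 (limma adjusted p = 0.000891), and Zeb2, at 0.67 (limma adjusted p = 0.0488), missed only the fold minimum. Vim, at 1.42 (limma adjusted p = 0.0412), lost its call without replicate 3 of 96 h, at 0.74, and without replicate 1 or 2 of 168 h, at 1.34 and 1.31. The call of Vim was also lost after rescaling of the libraries, with no filter on low values and with only the groups compared. It was lost too without replicate 3 in any group and with neighbouring libraries averaged.

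XEN cells were compared with 0 h and with 168 h to set the induced cells beside an established PrE-type line. Against 0 h, 37.6% of all genes tested were called, and 7 of the 10. Higher were Vim, Snai1, Zeb1 and Zeb2 (18.9% of all genes were called higher) and lower were Cdh1, Cdh3 and Epcam (18.7% of all genes were called lower). Vim, at 1024 and 1049 TPM, was higher by 3.38 on the log2 scale (limma adjusted p = 6.69e-05, SE 0.601). Cdh1 was lower, at a log2 change of -4.69 (limma adjusted p = 8.03e-16, SE 0.142).

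Zeb1, at 10.05 and 9.29 TPM in XEN cells, was higher than at 0 h by 1.01 (limma adjusted p = 0.000393, SE 0.219), and this was 0.95 without replicate 2 of 0 h and 0.96 without replicate 1 of XEN. Zeb2, at 5.005 and 3.1 TPM, was higher by 1.12 (limma adjusted p = 0.00239, SE 0.297) but was not called without replicate 1 of XEN, at 0.84, or with the fibroblast score as a covariate, at 0.93. Cdh2, at 3.61 and 3.77 TPM, overlapped with 0 h, with a log2 change of 0.29 (limma adjusted p = 0.3). The fibroblast markers summed to 123.2 to 129.3 TPM in XEN cells, which were also grown on feeders.

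Against 168 h, 13.9% of all genes and 6 of the 10 were called. XEN cells had more Vim, by 2.20 (limma adjusted p = 0.00552, SE 0.601), and more Cdh2, by 1.03 (limma adjusted p = 0.00198, SE 0.248), which was 0.97 without replicate 2 of 168 h. Twist1, at 3.12 and 1.75 TPM, was lower by far, at -2.21 (limma adjusted p = 1.9e-08, SE 0.189), and Snai1 was at -1.56 (limma adjusted p = 2.51e-06, SE 0.195). Cdh1 was at -1.49 (limma adjusted p = 8.38e-08) and Epcam at -1.03 (limma adjusted p = 1.14e-06), the latter at -0.998 without replicate 2 of 168 h, -0.99 without replicate 2 of XEN and -0.86 after rescaling of the libraries. The median log2 change of all genes in this comparison was -0.14 as deposited and -0.02 after rescaling. Zeb1 was higher in XEN cells, at a mean of 9.67 against 4.85 TPM without overlap. Its log2 change of 0.87 (limma adjusted p = 0.00287) was below the fold minimum but was called after rescaling. Vim was thus higher in XEN cells than at 168 h, while of the factors Snai1 and Twist1 were lower and Zeb1 was not.

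**Figure D4:**
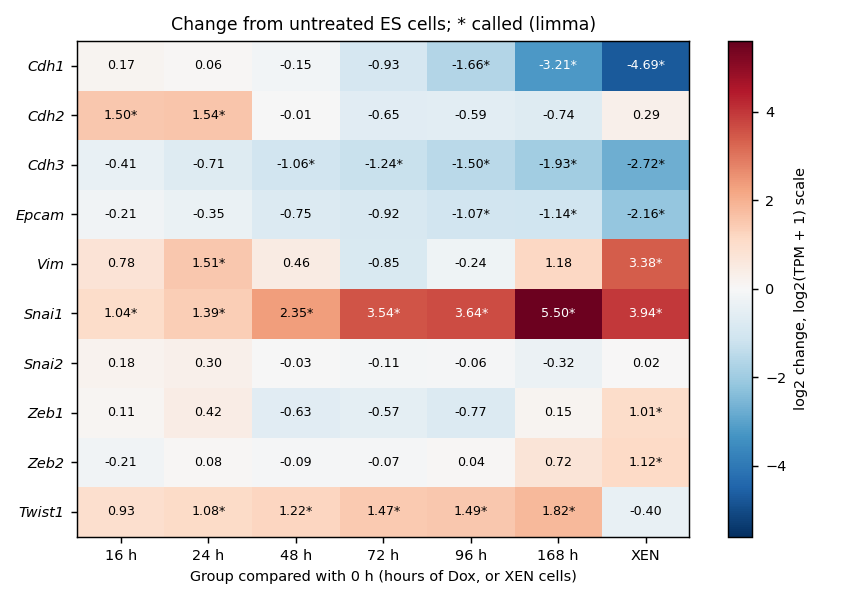
Log2 change of each of the 10 genes (rows) from 0 h, in each Dox group and in XEN cells (columns), on the log2(TPM + 1) scale, with red for higher, blue for lower and an asterisk for calls by limma. Snai1 was called in all 7 columns, and Cdh2 in the first 2 only.

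Other genes of adhesion and EMT were described with lists that leave out the 10. These lists were chosen with earlier results of these data known, so counts above the shares of all genes are a description and no test. Their counts at 168 h stand beside 22.6% of all genes called higher and 16.5% called lower, and those in XEN cells beside 18.9% and 18.7%. The median log2 change of all genes at 168 h was 0.09 as deposited and -0.05 after rescaling of the libraries. Among 12 partners of cadherins at the adherens junction, 2 rose and 2 fell at 168 h (median log2 change 0.52), near the shares of all genes. Nectin2, an immunoglobulin-type adhesion molecule, rose from 49.3 to 204.4 TPM and Vcl, the actin linker vinculin, from 26.0 to 58.7 TPM. Arvcf, a catenin of the p120 family, fell from 13.6 to 4.26 TPM and Plekha7 from 26.1 to 9.33 TPM. Of 17 other cadherins 6 were tested, and 2 rose and 0 fell (median 0.61). Cdh6, K-cadherin, rose from 0.0812 to 34.8 TPM, above the highest group mean of Cdh2, 10.2 TPM, on the same per-length scale.

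Of 20 epithelial genes 18 were tested, with 3 higher and 6 lower at 168 h (median -0.45), and 2 higher and 12 lower in XEN cells (median -2.43). Grhl2, a factor that maintains epithelial genes, fell from 27.7 to 0.203 TPM, Grhl3 from 14.2 to 0.399 TPM and Grhl1 from 5.6 to 0.267 TPM. Rab25, an epithelial trafficking GTPase, fell from 15.0 to 0.772 TPM and Crb3, an apical polarity protein, from 17.0 to 2.86 TPM. Elf3, an epithelial ETS factor, went the other way, from 22.5 to 112.0 TPM, as did the splicing factor Esrp2, from 5 to 12.2 TPM, and the protease St14, from 26.0 to 55.8 TPM.

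Of 20 mesenchymal genes, 8 were higher and 4 lower at 168 h (median 0.25), where 22.6% and 16.5% of all genes were called. In XEN cells 11 were higher and 0 lower (median 1.15), where 18.9% and 18.7% of all genes were called. Sparc, a matrix protein made in large amounts by parietal endoderm, rose from 98.3 to 12001 TPM. Ccn2 rose from 41.7 to 1076 TPM and Ccn1 from 27.8 to 437.9 TPM, both secreted matricellular proteins. Itga5, the fibronectin receptor subunit, rose from 18.2 to 134.0 TPM and Cald1 from 40.4 to 194.5 TPM. S100a6 fell from 411.7 to 98.9 TPM, S100a4 from 155.9 to 44.8 TPM, Fn1, fibronectin, from 237.8 to 103.5 TPM and Lgals1 from 158.6 to 74.7 TPM. Of the 12 fibroblast markers 11 were tested, and 6 were higher and 0 lower at 168 h (median 1.21), and their part in these counts was not tested.

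Of 13 other EMT transcription factors 10 were tested and 1 rose, Klf8, from 9.65 to 33.2 TPM, and 1 fell (median 0.20). In the TGF-beta pathway, the best known inducer of EMT, 7 of 12 genes rose and 1 fell (median 1.12), where 22.6% of all genes rose and 16.5% fell. As this list was chosen with earlier results known, whether the pathway differs from all genes was not tested. The receptors Tgfbr3 and Tgfbr2 rose from 0.623 to 47.6 TPM and from 0.961 to 36.2 TPM, the signal transducers Smad2 and Smad4 from 28.8 to 106.8 TPM and from 26.6 to 78.5 TPM, and the ligand Tgfb3 from 1.33 to 5.16 TPM. Smad7, which inhibits the pathway, fell from 42.5 to 13.9 TPM.

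Genes whose group means ran most like those of each of the 10 were ranked by Pearson's r of mean log2(TPM + 1) over the 8 groups, as a description across points that share libraries. For Cdh1 they were Acp1 (r = 0.999), Klhl13 (r = 0.997) and Gm13147 (r = 0.996). Pearson's r takes no account of the size of a change. From 0 to 168 h Acp1 went from 51.2 to 36.5 TPM, Klhl13 from 240.6 to 27.4 TPM and Gm13147 from 85.0 to 3.55 TPM. For Snai1 they were Hmbox1 (r = 0.998), Tax1bp3 (r = 0.997) and Soat1 (r = 0.996). For Cdh2, with its early peak, they were Fbxo8 (r = 0.983), Loxl3 (r = 0.982) and Ddx25 (r = 0.979).

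The siRNA series asked whether lower Oct4 during Dox altered the same genes. A gene was called there at an adjusted p under 0.05 and an absolute log2 change over 0.5, and 2.67% of the 6264 genes tested were called. None of the 9 genes listed was called (0 of 9, limma), 0 of 9 had an unadjusted p under 0.05, and the libraries of the groups overlapped for all 9. Cdh1 ranged from 35.1 to 179.4 TPM in siCTL (median 116.8) and from 32.7 to 190.3 TPM in siOct4 (median 106.6). Its log2 change was -0.11, with a 95% interval from -1.07 to 0.85 (limma adjusted p = 0.941). The median log2 change of all 6264 genes tested was -0.12 as deposited and 0.008 after rescaling of the libraries. The changes and intervals given for this series are as deposited.

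Same-numbered libraries deviated together and were taken as pairs, although the labels do not name pairs and some other-numbered libraries were as close. With the number as a block the interval for Cdh1 narrowed to -0.40 to 0.18 (limma adjusted p = 0.643). Epcam ranged from 36.4 to 110.5 TPM (median 57.6) in siCTL and from 32.3 to 116.0 TPM (median 67.4) in siOct4, with a blocked interval of -0.22 to 0.29. Snai1 ranged from 8.003 to 28.5 TPM (median 10.6) and from 4.37 to 16.1 TPM (median 13.8), with a blocked interval of -0.60 to 0.36. Twist1 ranged from 4.75 to 7.04 TPM (median 5.74) and from 4.57 to 6.72 TPM (median 5.10), with a blocked interval of -0.47 to 0.27. For these 4 genes a change of 1 on the log2 scale lay outside the blocked interval, while a change of 0.5 lay inside it for Snai1 and outside it for Cdh1, Epcam and Twist1. These limits rest on the pairing and on taking the 6 numbers as independent. Libraries 5 and 6 were close, at root mean square differences in log2(TPM + 1) of 0.293 in siCTL and 0.292 in siOct4. The same held for siCTL 1 and 2 (0.273). Further apart were siOct4 1 and 2 (0.504), siCTL 3 and 4 (1.06) and siOct4 3 and 4 (0.444). If neighbouring libraries share an experiment, the blocked intervals may be too narrow. Without the block, 0.5 lay inside the intervals of Cdh1, Epcam (-0.68 to 0.75) and Snai1 (-0.84 to 0.60). It lay outside that of Twist1 (-0.48 to 0.27). A fall of 1 lay inside the unblocked interval of Cdh1 (-1.07 to 0.85) and outside those of Epcam, Snai1 and Twist1.

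Among the other 5 genes, Vim ranged from 88.7 to 237.9 TPM (median 187.3) in siCTL and from 101.1 to 425.6 TPM (median 152.1) in siOct4, with a blocked interval of -0.69 to 0.96. The blocked intervals were -0.49 to 0.67 for Cdh2, -0.09 to 0.61 for Cdh3, -0.73 to 0.50 for Zeb1 and -1.03 to 0.53 for Zeb2. The 5 libraries with the most Vim, 226.2 to 425.6 TPM against 88.7 to 164.6 TPM in the other 7, were siCTL 1, 2 and 4 and siOct4 5 and 6. They were also the 5 with the most Zeb1, the most Zeb2 and the most of the fibroblast collagen Col1a2, 45.5 to 67.8 TPM against 6.9 to 23.6 TPM. The 5 fibroblast markers in this table summed to 26.1 to 210.0 TPM in siCTL and 27.8 to 213.5 TPM in siOct4, none of them at 0 in any library. With the block and the fibroblast score together, the log2 change of Vim was 0.31 (limma adjusted p = 0.0582), that of Zeb1 0.03 (limma adjusted p = 0.92) and that of Zeb2 -0.06 (limma adjusted p = 0.828).

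**Figure D5:**
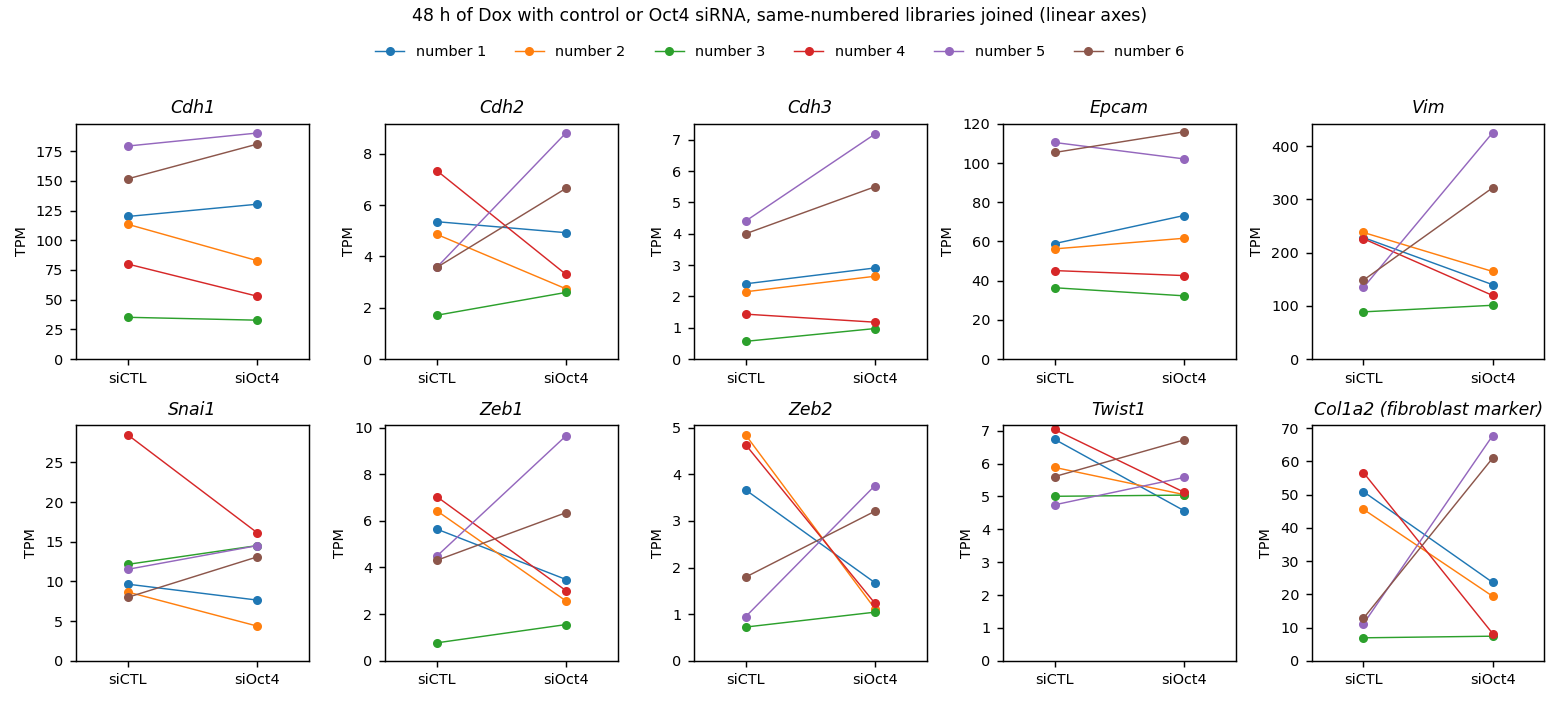
TPM (vertical axes, linear, from 0) of the 9 listed genes and of the fibroblast marker Col1a2 after 48 h of Dox with siCTL or siOct4, 1 point a library, with same-numbered libraries joined. The groups overlapped for all 9 genes, and Vim, Zeb1 and Zeb2 were highest in the same 5 libraries as Col1a2.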

How the data were processed

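RNA-seq was made from 35 libraries, 23 of the induction series and 12 of the siRNA series, grouped by their titles. Stranded polyA libraries were read as pairs, and the authors mapped them with STAR (mm10), quantified genes with RSEM and deposited TPM after leaving out outliers by principal component analysis. The labels also name bcl2fastq and cutadapt. Versions and gene annotation were not given in the sources used here. The siRNA table holds only genes the authors called GATA6-responsive, so it cannot show others, and its columns of group means and response classes were not used. TPM keep no depth, so no counting interval is given.

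For the 60 symbols on several rows, only the row of highest mean entered. Genes averaging 1 TPM or more in a group (15057, and 6264 of the siRNA table) were tested as log2(TPM + 1) with limma 3.58.1 in R 4.3.3 (lmFit, eBayes with trend and robust), 1 coefficient a group, and Benjamini-Hochberg adjustment over all genes tested. Calls needed an adjusted p under 0.05 and an absolute log2 change over 1, or over 0.5 in the siRNA series. The test was checked on simulated data. The 10 genes and every list were chosen with earlier results of these data known. Named from the lists were genes called at 168 h averaging 5 TPM or more in a group, at most 5 in each direction by log2 change. For likeness, the 3 genes with the highest r were taken for each of the 10, and those of Cdh1, Snai1 and Cdh2 are given.

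Same-numbered siRNA libraries deviated together from their group means in all 6 pairs (r from 0.236 to 0.707, mean 0.33). The 30 pairs of other numbers had a mean r of -0.06 (from -0.56 to 0.46). Some of these were closer, such as siCTL 2 with siOct4 1 (r = 0.339, against 0.242 with siOct4 2). The study describes independent experiments, so the number was used as a block, but the labels do not name pairs. Positions are from GENCODE M21. Python 3.11.15, numpy 2.4.6, pandas 2.3.3 and matplotlib 3.10.9 were used. Alternatives were rescaling by median of ratios, other filters and pseudocount, no fold minimum, only the groups compared, the replicate block, a fibroblast score as covariate and each library left out. Fits without replicate 3 and with neighbouring libraries averaged were chosen after seeing the data, as was the siRNA block with the fibroblast score.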

Additional observations from a re-analysis of the deposited data

Results flagged for a closer look

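Of 18 sets of 6 libraries (9 genes in each siRNA group), 2 held a library far from the other 5 on the log2(TPM + 1) scale. Chance alone gives about 1 in 20, or 0.9 of 18 if the sets were independent, but all 9 genes share the same libraries. Snai1 in siCTL library 4 was at 4.88, with the other siCTL libraries between 3.17 and 3.72. Zeb1 in siCTL library 3 was at 0.82, with the others between 2.41 and 3.01. This library was also the lowest of siCTL for Cdh1, Cdh2, Cdh3, Epcam, Vim and Zeb2, within the limit of the screen. It had the fewest genes at 1 TPM or more in siCTL, 5483 against 6026 to 6109, so its deviation is not particular to Zeb1.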

How the results depend on the processing

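Of the 41 pairs of a gene and a comparison that were called, 29 kept their call under every alternative that gave a value and 12 lost it under at least 1, and no called value changed sign. Of 2219 values under alternatives, 2119 kept direction and side, 39 lost the call and 61 gained it. With no fold minimum the number of the 10 genes called was 5 at 48 h, 7 at 72 h, 4 from 24 to 48 h, 3 from 48 to 72 h, 1 from 72 to 96 h and 5 from 96 to 168 h. From 48 to 72 h it was 2 with a pseudocount of 0.1, 2 with the replicate block and 2 with only the groups compared. Without replicate 3 it was 4 from 24 to 48 h, 3 from 48 to 72 h and 1 from 72 to 96 h. With neighbouring libraries averaged it was 2 at 24 h. With each library left out in turn, the number called ranged from 1 to 3 at 16 h, 2 to 4 at 24 h, 2 to 3 at 48 h, 3 to 5 at 72 h, 5 to 5 at 96 h, 5 to 6 at 168 h, 5 to 7 in XEN against 0 h and 4 to 6 in XEN against 168 h. For steps it ranged from 0 to 0 from 16 to 24 h, 1 to 3 from 24 to 48 h, 1 to 2 from 48 to 72 h, 0 to 0 from 72 to 96 h and 2 to 3 from 96 to 168 h, and it was 0 to 0 for siOct4. The cause of these shifts was not tested.

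In the induction series, same-numbered libraries deviated together only weakly across all genes (mean r 0.03, lowest -0.19), so the number was not taken as a pairing, although Vim and Thy1 did differ by number. With the replicate block, Vim was called at 168 h (log2 change 1.18, limma adjusted p = 0.000506) and in the steps from 24 to 48 h (-1.05) and from 48 to 72 h (-1.31), and Zeb1 in XEN against 0 h was not, at 0.99. In the siRNA series, the block raised the genes called from 167 to 537 of 6264 and changed no call among the 9 genes. Limits are the 2 XEN libraries, the unknown depth and the wide siRNA intervals.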
